A study of Mus with 2 samples.

Results

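The nuclei described here are those of mouse interscapular brown adipose tissue (iBAT) that carried transcripts of the mitotic machinery, whatever their lineage. A nucleus was counted as cycling when it held at least 1 unique molecular identifier (UMI, a single captured RNA molecule) of at least 2 of 9 genes, and when mitochondrially encoded genes took at most 25% of its UMIs. Of 18266 nuclei in the deposited tables, 16914 were within the mitochondrial limit, and 257 of these were cycling by this rule. The rule used the UMIs of *Mki67*, *Top2a*, *Cenpf*, *Cenpe*, *Kif11*, *Knl1*, *Aspm*, *Anln* and *Diaph3*, so the levels of these genes in the members are given as a description and support nothing.

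Single-nucleus RNA sequencing had been run on frozen iBAT from C57BL/6 mice on chow at 8 weeks of age. Mice of both groups were homozygous for floxed *Wtap*, which encodes a subunit of the complex that writes the RNA mark m6A, and the BKO group also carried *Ucp1*-iCre, which drives recombination in brown adipocytes. Each genotype was 1 library made from 4 pooled mice, so there was no replicate, no test between genotypes was possible and no p-value is given. The Cre is driven by the *Ucp1* gene, a gene of brown adipocytes, whereas most of the cycling nuclei had markers of other cells.

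A cell that enters the cycle first licenses and copies its DNA in S phase, with the MCM helicase, the polymerases and enzymes that supply nucleotides. In G2 and mitosis it condenses its chromosomes, builds a spindle of microtubules and motors, attaches the chromosomes through kinetochores and divides with a contractile ring. Mature brown adipocytes are largely post-mitotic, while T cells that have met antigen are known to divide rapidly, and macrophages, dendritic cells, endothelial cells and fibroblasts of adipose tissue can divide where they reside.

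*Wtap* itself was measured first, since it checks the labels. It had 531 UMIs, or 53.5 counts per 1000000 UMIs (CPM), in the *Wtap* flox/flox nuclei and 693 UMIs, or 54.2 CPM, in the nuclei labelled *Wtap*-BKO. The log2 ratio was 0.02 with an interval from -0.15 to 0.19, and in adipocyte-like nuclei, where the Cre is driven, it was -0.00 with an interval from -0.21 to 0.21. The floxed exon lies inside the gene, and a tag from the 3′ end or another exon is outside the deleted part, so this count need not show the deletion. *Wtap* was not lower in the library labelled *Wtap*-BKO, which is called the BKO-labelled library below, and every direction between genotypes rests on the labels. In the cycling nuclei *Wtap* had 4 UMIs in the flox/flox library and 25 UMIs in the BKO-labelled library, at 76.1 and 50.6 CPM, and the log2 ratio of -0.59 had an interval from -2.12 to 1.39. All intervals in this text are 95% intervals that cover counting error only, and not the spread between mice or libraries.

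The flox/flox library held 9494 nuclei with 10770604 UMIs and the BKO-labelled library held 8772 nuclei with 13945673 UMIs. The median nucleus within the mitochondrial limit had 952 UMIs in the former and 1315 in the latter, and its mitochondrial share was 3.28% and 7.70%. The cycling nuclei were deeper than the rest, with medians of 1339 and 1647 UMIs, and had mitochondrial shares of 2.78% and 7.29%. The libraries shared 20 barcodes, 1 of which belonged to a cycling nucleus of the BKO-labelled library. Nuclei with at least 2 markers of each of 2 lineages other than adipocytes made up 13.3% of the cycling and 1.96% of the other nuclei of the flox/flox library, and 19.8% and 6.44% in the BKO-labelled library. The part of such possible doublets in the results was not tested, but values without them are given where they turned a direction or a named call.

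To describe the members by the genes that chose them, each rule gene was counted in both libraries, with positions from the RefSeq table of GRCm38.p6, the assembly that the labels name as mm10. *Mki67* (chr7:135689784-135716450) encodes Ki-67, which coats mitotic chromosomes, and had a UMI in 21 of 30 cycling nuclei (70.0%) of the flox/flox library and in 150 of 227 (66.1%) of the BKO-labelled library. It was found in 0.113% and 1.09% of the other nuclei, and the members held 85.5% and 79.2% of all its UMIs. Its level in the members was 1237 CPM (954 to 1576) in the flox/flox library and 708 CPM (636 to 786) in the BKO-labelled library. *Top2a* (chr11:98992947-99024199), the topoisomerase that disentangles sister DNA, was detected in 53.3% and 58.1% of the members. These were the genes found most often, together with *Diaph3* (chr14:86655357-87141247), an actin nucleator, in 46.7% and 56.8%.

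Of the kinetochore genes, *Cenpf* (chr1:189640606-189688107) was detected in 36.7% of the flox/flox and 26.4% of the BKO-labelled members, *Cenpe* (chr3:135212563-135273540) in 36.7% and 37.0%, and *Knl1* (chr2:119047119-119110497) in 33.3% and 39.6%. The spindle motor gene *Kif11* (chr19:37376382-37421863) was detected in 30.0% and 43.6%, the spindle pole gene *Aspm* (chr1:139454188-139494088) in 6 of 30 members and in 24.7%, and *Anln* (chr9:22331214-22389211), which encodes the contractile ring protein anillin, in 13.3% and 28.6%. The genes differed in how far they were limited to the members. The 30 flox/flox members held 21.2% of the *Aspm* UMIs and 15.2% of the *Anln* UMIs, so most UMIs of these genes there lay singly in nuclei that were not counted. Those of the BKO-labelled library held 69.1% and 59.1% of them.

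The rule cuts a steep distribution. Of the flox/flox nuclei 8635 had none of the 9 genes, 237 had 1, 14 had 2 and 16 had 3 or more, and no nucleus had over 7. Of the BKO-labelled nuclei 7239 had none, 546 had 1, 82 had 2 and 145 had 3 or more, and 5 nuclei had all 9. The nuclei just outside the limit, with 1 gene, had medians of 1116 and 1505 UMIs, and those just inside, with 2 genes, had 1406 and 1503 UMIs.

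**Figure D1:**
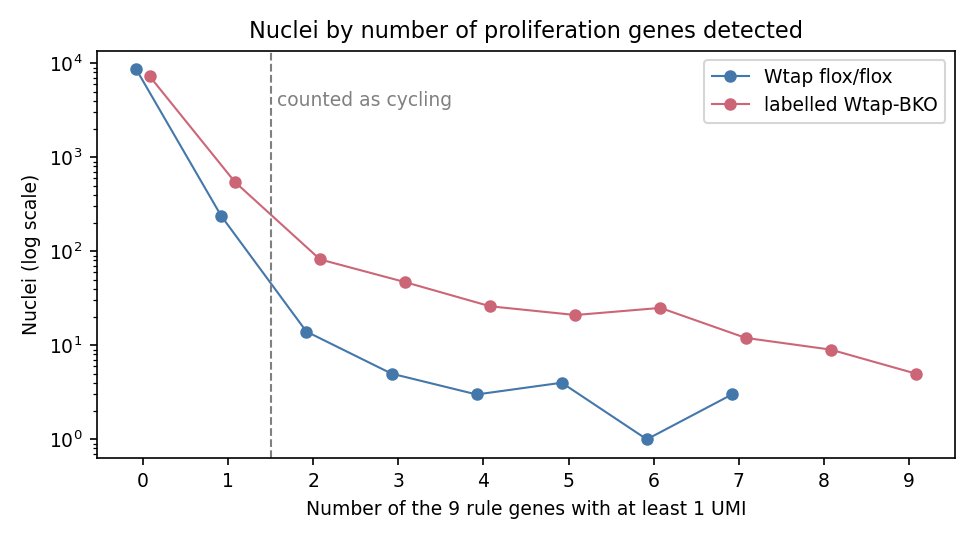
Number of nuclei (log axis) by how many of the 9 rule genes had a UMI, in the *Wtap* flox/flox library (blue) and the library labelled *Wtap*-BKO (red); the dashed line marks the limit of 2 genes. The counts fall from 8635 and 7239 nuclei with no gene to 14 and 82 with 2 genes, and nuclei with 8 or 9 genes were found only in the library labelled *Wtap*-BKO.

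By this rule 30 of 8902 nuclei (0.337%, 0.227 to 0.481) were cycling in the flox/flox library and 227 of 8012 (2.83%, 2.48 to 3.22) in the BKO-labelled library. The ratio of the shares was 8.41 with an interval from 5.73 to 12.7. Since a deeper nucleus has more chances to show 2 genes, the count was repeated after each nucleus was thinned to 1000 UMIs, which left out 7 and 48 members that had fewer UMIs. Then 16 of 4079 nuclei (0.392%) and 122 of 5427 (2.25%) were cycling, a ratio of 5.73 (3.39 to 10.3). The direction was the same at 1 depth, with a smaller ratio.

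To find the lineages of the members, each nucleus was assigned to the lineage other than adipocytes with the most distinct markers detected, and at least 2. A nucleus was called adipocyte-like only when no other lineage reached 2 markers and at least 2 adipocyte markers were detected. Adipocyte markers were not weighed against the others, so nuclei of another lineage could hold more UMIs of adipocyte markers than of their own. T-like nuclei, with UMIs of genes such as *Cd3e*, *Cd247*, *Skap1* and *Themis*, were the largest group of members, with 11 of 30 (36.7%, 19.9 to 56.1) in the flox/flox library and 125 of 227 (55.1%, 48.3 to 61.7) in the BKO-labelled library. Macrophage-like nuclei gave 3 and 17 members and dendritic-like nuclei 2 and 16. All immune lineages together gave 16 members (53.3%) and 162 members (71.4%). Endothelial-like nuclei gave 5 (16.7%) and 8 (3.52%), and adipocyte-like nuclei 7 (23.3%) and 26 (11.5%). Fibroblast-like members, 9 by their markers, came from the BKO-labelled library, while in the flox/flox library 2 members with markers of other lineages lay in the fibroblast cluster.

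The remaining members were few. Pericyte- and smooth muscle-like nuclei gave 1 in each library, and the BKO-labelled library also had 1 NK-like, 1 B-like and 2 plasma-like members. No cycling nucleus was Schwann-like, mast-like, lymphatic endothelial-like, epithelial-like, neutrophil-like or skeletal muscle-like, groups of at most 20 nuclei each. The BKO-labelled library also held 7 members tied between lineages and 14 with too few markers, and the flox/flox library held 1 with too few. Clusters of all nuclei, made without cycle genes, gave a second view. Of the 125 T-like members of the BKO-labelled library 123 lay in the T cluster, as did 11 of the 14 with too few markers, and the T cluster then held 142 of the 227 members (62.6%).

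The share of a lineage that was cycling differed widely between lineages. Among T-like nuclei 11 of 73 (15.1%, 7.77 to 25.4) were cycling in the flox/flox library and 125 of 601 (20.8%, 17.6 to 24.3) in the BKO-labelled library. The ratio of 1.38 had an interval from 0.745 to 2.84, so no difference between the libraries was detectable at this depth. Thinned to 1000 UMIs, the shares were 8 of 29 (27.6%) and 68 of 269 (25.3%), with a ratio of 0.916 (0.440 to 2.21). Thinning left out shallower nuclei and the lineages were called again on the thinned counts. Thinned values by lineage, here and below, are therefore not from the same set of nuclei. T-like nuclei as a whole were 0.820% of the flox/flox and 7.50% of the BKO-labelled nuclei.

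Dendritic-like nuclei came next, with 2 of 20 (10.0%) and 16 of 112 (14.3%, 8.39 to 22.2) cycling. Macrophage-like nuclei were cycling less often, with 3 of 168 (1.79%, 0.370 to 5.13) and 17 of 716 (2.37%, 1.39 to 3.77). In both of these lineages the interval of the ratio between libraries held 1. In the BKO-labelled library the intervals of the T-like and dendritic-like shares overlapped, while that of the macrophage-like share lay below both. The clusters did not separate the last 2 lineages: all 2 and 16 dendritic-like members of the libraries lay in the macrophage cluster, in which 7 of 277 and 47 of 1113 nuclei (4.22%) were cycling.

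Outside the immune lineages the shares were lower. Endothelial-like nuclei had 5 of 951 (0.526%) and 8 of 763 (1.05%) cycling. Fibroblast-like nuclei had 0 of 183, which allows a share of up to 1.64% at 3 counts, or 1.996% by the exact interval, and 9 of 502 (1.79%, 0.823 to 3.38), so that 0 does not separate the libraries. Adipocyte-like nuclei had 7 of 6371 (0.110%, 0.0442 to 0.226) and 26 of 4432 (0.587%, 0.384 to 0.858), a ratio of 5.34 (2.26 to 14.6) that was 3.85 (1.06 to 21.1) after thinning. Over all immune lineages the ratio of 1.81 (1.08 to 3.25) was 1.06 (0.549 to 2.28) after thinning, with shares of 10.6% and 11.3%.

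These shares can be recombined with the lineage make-up of either library. With the flox/flox make-up and the within-lineage shares of the BKO-labelled library, 1.14% of all nuclei would be cycling, and with the make-up of the BKO-labelled library and the flox/flox shares it would be 1.55%. Both lie between the measured 0.337% and 2.83%. Whether more nuclei of immune lineages came from more cells in the tissue or from the recovery of nuclei cannot be told apart with 1 library per genotype.

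**Figure D2:**
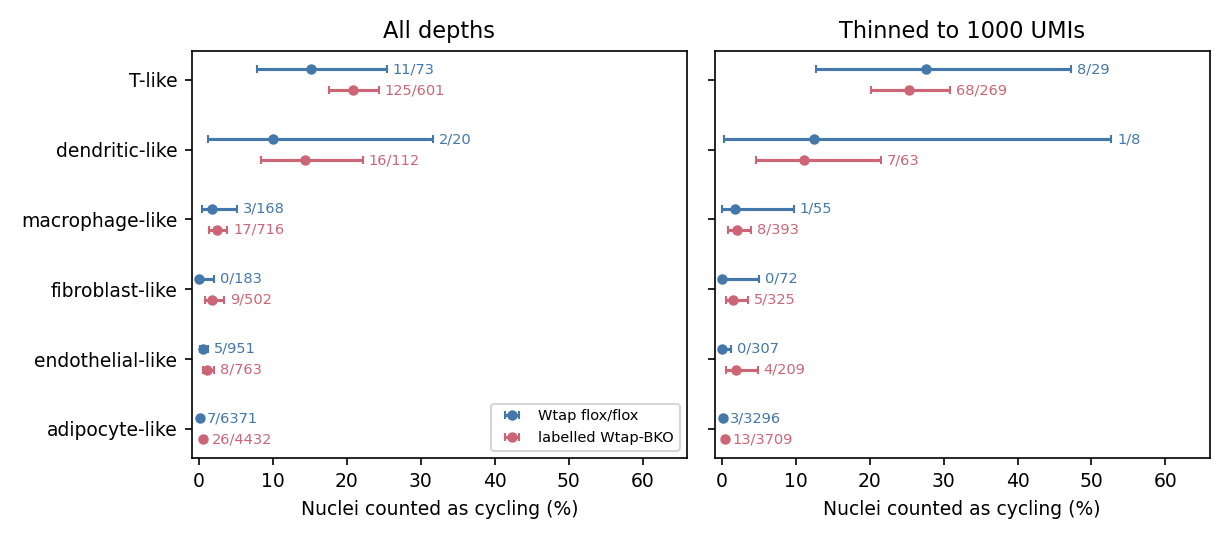
Share of the nuclei of each lineage counted as cycling, in percent, at all depths (left) and after thinning to 1000 UMIs (right), for the *Wtap* flox/flox library (blue) and the library labelled *Wtap*-BKO (red); bars are exact binomial 95% intervals and the labels give cycling over all nuclei. T-like nuclei had the highest share in both libraries, 15.1% and 20.8% at all depths, and their intervals overlapped.

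The rule used 9 genes, and the members' other cycle genes were read on lists that left these out. In the BKO-labelled library 169 of the 227 members (74.4%) had UMIs of at least 2 of the 54 mitosis genes, 168 (74.0%) had at least 2 of the 45 replication genes, 134 (59.0%) had both and 24 (10.6%) had neither. Among the flox/flox members 24 of 30 (80.0%) had at least 2 mitosis genes, 18 (60.0%) at least 2 replication genes, 16 both and 4 neither. Among the nuclei of the BKO-labelled library with no rule gene these shares were 3.65% and 11.8%.

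Other mitosis genes were found more often the more rule genes a nucleus had. At least 2 mitosis genes were found in 12.1% of the BKO-labelled nuclei with 1 rule gene, in 35 of 82 (42.7%) with 2, in 63 of 73 (86.3%) with 3 or 4 and in 71 of 72 (98.6%) with 5 or more. At least 2 replication genes were found in 25.8%, 62.2%, 69.9% and 91.7%. The members with exactly 2 rule genes were therefore the most mixed.

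Where the limit fell depended on the lineage. In T-like nuclei of the BKO-labelled library the summed level of the mitosis genes was 342 CPM with no rule gene, 1077 CPM with 1, 2888 CPM with 2, 4344 CPM with 3 or 4 and 7118 CPM with 5 or more. Their replication genes stood at 832, 2547, 3694, 4155 and 3347 CPM, so this list was already high with 1 rule gene, and 53.1% of those 81 nuclei had at least 2 replication genes. The T-like nuclei that were not counted thus included some with many replication transcripts.

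Dendritic-like nuclei of that library had 229, 323 and 881 CPM of mitosis genes with 0, 1 and 2 rule genes, and 7919 CPM with 3 or 4. Macrophage-like nuclei had 192, 317 and 496 CPM, and 4921 CPM with 3 or 4. Adipocyte-like nuclei had 158, 202 and 643 CPM (393 to 993), and 3357 CPM (2430 to 4522) in the 8 nuclei with 3 or 4. With exactly 2 rule genes, 22 of 34 T-like members had at least 2 mitosis genes, against 3 of 18 adipocyte-like members, 12 of which had neither 2 mitosis nor 2 replication genes.

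**Figure D3:**
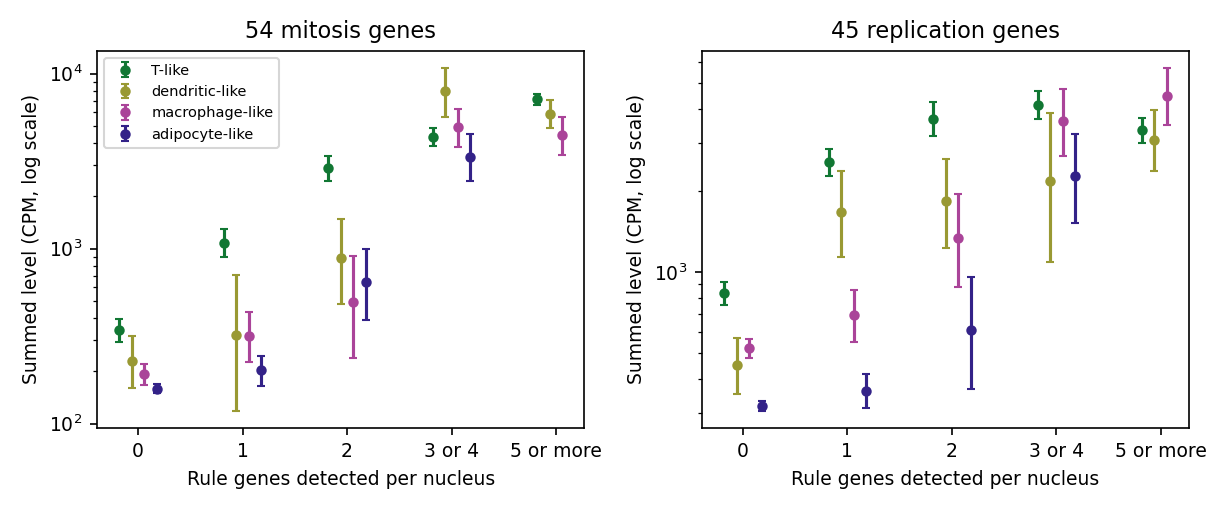
Summed level, in CPM on a log axis, of the 54 mitosis genes (left) and the 45 replication genes (right) in nuclei of the library labelled *Wtap*-BKO, by the number of rule genes detected and by lineage; bars are exact Poisson 95% intervals. At 2 rule genes the mitosis level was 2888 CPM in T-like nuclei and 643 CPM in adipocyte-like nuclei, and at 3 or 4 genes it was above 3000 CPM in all 4 lineages.

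T-like members had enough nuclei for a comparison gene by gene within 1 library. In the BKO-labelled library 125 cycling T-like nuclei with 230579 UMIs were set against 476 other T-like nuclei with 609832 UMIs, and 7365 genes had at least 20 UMIs over both. The median log2 ratio of all of them was -0.02. A ratio of at least 2 with at least 3 UMIs in the cycling nuclei was reached by 551 genes (7.48%), and a ratio of 0.5 or less with at least 3 UMIs in the other nuclei by 625 (8.49%). These percentages are the background for the lists, and since the members were chosen by cycle genes in these nuclei, the ratios are a description. A cycle gene that is low in the other nuclei reached 20 UMIs mainly through the cycling nuclei, so the counts and medians over the cycle genes that could be compared were largely fixed by that minimum, and the sums over whole lists were not filtered.

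The 54 genes of mitosis together had 1235 UMIs in the cycling and 291 in the other T-like nuclei, 5356 against 477 CPM, a log2 ratio of 3.49 (3.30 to 3.68). Of the 54 genes 36 reached the minimum, and these had log2 ratios from 2.14 to 6.40 with a median of 3.85. *Cit*, which encodes a kinase of the division furrow, had 64 UMIs in cycling and 13 in other nuclei, with a log2 ratio of 3.70 (2.83 to 4.69). *Kif15*, a spindle motor gene, had 48 and 8 UMIs with a log2 ratio of 3.99 (2.90 to 5.28), and *Cenpa*, the centromeric histone gene, had 57 and 16 UMIs with 3.24 (2.42 to 4.14). *Ttk*, a kinase gene of the spindle checkpoint, had 32 UMIs and 1 UMI, a log2 ratio of 6.40 with an interval from 3.82 to 11.8.

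Genes of DNA replication were higher by less. Of 45 genes 33 could be compared and 28 of these were past 2-fold, with a median log2 ratio of 1.67, and the summed level was 3665 against 1148 CPM, a log2 ratio of 1.67 (1.53 to 1.82). *Pola1*, the catalytic subunit of the polymerase that starts DNA strands, had 91 and 50 UMIs with a log2 ratio of 2.27 (1.75 to 2.79). *Prim2*, a subunit of the primase bound to it, had a log2 ratio of 1.70 (1.02 to 2.39), and *Atad2*, a chromatin ATPase of replicating cells, of 1.37 (0.78 to 1.97). The helicase gene *Mcm2* did not pass, at 0.57 (-0.79 to 1.84), with 9 and 16 UMIs.

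Repair and chromosome genes followed the same direction. Of 10 comparable genes of homologous repair 9 were past 2-fold, with a median log2 ratio of 2.10, among them *Mms22l* at 2.04 (1.33 to 2.76), *Brip1* at 2.93 (1.72 to 4.30) and *Brca2* at 1.33 (0.31 to 2.33). All 11 comparable genes of the condensin and chromatin list passed, with a median of 1.996. Of these, *Smc4*, a condensin subunit gene, was at 1.10 (0.66 to 1.54), *Tmpo*, which encodes a protein of the nuclear lamina, at 1.99 (1.44 to 2.55) and *Hmgb2*, a chromatin protein gene, at 1.996 (1.51 to 2.496). *Brca2* stood at -0.19 (-2.77 to 1.94) in nuclei with at most 5% mitochondrial UMIs.

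The regulators of the cycle ranged from far higher to lower. Of 12 comparable genes 7 were past 2-fold higher and 1 lower, with a median log2 ratio of 1.66 and a summed ratio of 0.40 (0.24 to 0.56). In nuclei with at most 5% mitochondrial UMIs 4 of these genes could be compared, and their median was -0.72. *E2f7* at 4.53 (3.05 to 6.49), *Foxm1* at 4.21 (2.70 to 6.18) and *Ccnf* at 4.05 (2.51 to 6.03), which act from S phase to mitosis, had the highest ratios, and *E2f3*, an activator of S phase genes, was at 1.56 (0.94 to 2.17). *Cdk6*, a kinase of G1, was at 0.09 (-0.38 to 0.55). *Ccnd3*, a D-type cyclin gene of G1, had 38 UMIs in cycling and 440 in other T-like nuclei, 165 against 722 CPM, a log2 ratio of -2.13 (-2.65 to -1.65). This was the gene of the list with the most UMIs in the other T-like nuclei and the only one past 2-fold lower, and over 13 alternatives its ratio stayed between -2.70 and -1.67.

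Of 11 comparable genes of quiescence and arrest 2 were past 2-fold lower and 1 higher, beside 8.49% and 7.48% of all genes, with a median log2 ratio of -0.46. *Btg1*, an antiproliferative gene of resting lymphocytes, had 27 and 165 UMIs, with a log2 ratio of -1.21 (-1.85 to -0.62), and *Pik3ip1*, a brake on PI3K signalling, had 5 and 29 UMIs with -1.13 (-2.86 to 0.25). *Tob1*, a relative of *Btg1*, had 49 and 229 UMIs with -0.82 (-1.30 to -0.37), but stood at 0.035 (-1.004 to 1.01) in nuclei with at most 5% mitochondrial UMIs and at -1.34 (-2.01 to -0.72) without possible doublets. *Ccng2* was higher, at 1.01 (0.07 to 1.93).

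In the flox/flox library 11 cycling T-like nuclei were set against 62 others, and few genes had enough UMIs, so the lists are given by their sums. The mitosis list was at 4116 against 130 CPM, a log2 ratio of 4.99 (4.00 to 6.16), and the replication list at 1523 against 794 CPM, with 0.94 (0.30 to 1.57). The repair list was at 2.17 (1.06 to 3.35) and the condensin and chromatin list at 1.74 (1.11 to 2.39). All 4 lists had the same direction as in the BKO-labelled library.

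**Figure D4:**
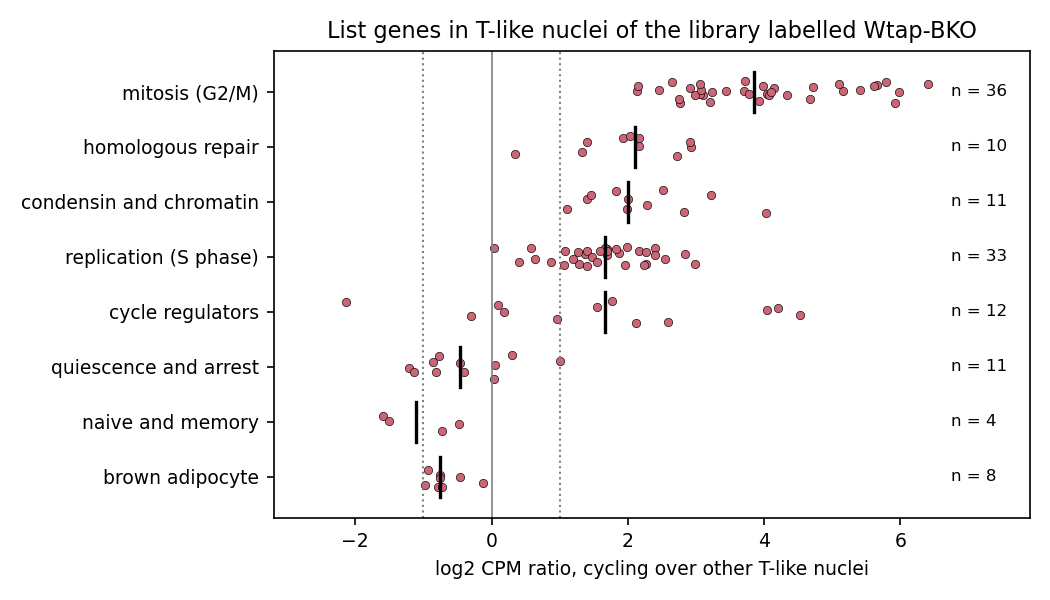
log2 CPM ratio of cycling over other T-like nuclei of the library labelled *Wtap*-BKO, with 1 point per comparable gene of each list, a black bar at the list's median, dotted lines at 2-fold and n the number of genes. The 36 mitosis genes that reached 20 UMIs, mainly through the cycling nuclei, have a median of 3.85, whereas the naive and memory genes lie below 0 with a median of -1.12.

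To see which T cells the cycling nuclei resembled, genes of T-cell subsets were compared in the BKO-labelled library. *Cd8a*, which encodes the coreceptor of cytotoxic T cells, had 62 UMIs in the cycling and 79 in the other T-like nuclei, 269 against 130 CPM, and a log2 ratio of 1.05 (0.55 to 1.55). Its partner *Cd8b1* had 31 and 39 UMIs, at a log2 ratio of 1.07 (0.34 to 1.79). *Cd4*, the coreceptor gene of helper T cells, had 9 and 47 UMIs, at a log2 ratio of -0.98 (-2.20 to 0.06). Without the 1 cycling nucleus with the most UMIs of each gene, the ratios were 0.97 (0.45 to 1.48) for *Cd8a*, 0.90 (0.13 to 1.64) for *Cd8b1* and -1.32 (-2.71 to -0.16) for *Cd4*. The other T-like nuclei were all kept, here and wherever a top nucleus was left out, which favours lower ratios. The 2-fold calls of both *Cd8* genes and the interval of *Cd4* thus turned on 1 nucleus each, while the intervals of the *Cd8* genes stayed above 0.

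Counted by nucleus, 50 of 125 cycling T-like nuclei (40.0%, 31.3 to 49.1) had a UMI of *Cd8a* or *Cd8b1* and none of *Cd4*, against 78 of 476 others (16.4%, 13.2 to 20.02). After thinning to 1000 UMIs it was 25 of 68 (36.8%, 25.4 to 49.3) against 27 of 201 (13.4%, 9.04 to 18.9), so the difference was also present at 1 depth. *Cd8a* had a UMI in 0.451% of the adipocyte-like nuclei, which should lack it, at a median of 1439.5 UMIs. In the flox/flox library 1 of 11 cycling and 11 of 62 other T-like nuclei had *Cd8* without *Cd4*, too few to compare.

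Effector genes were mixed. Of 7 cytotoxic genes 2 were past 2-fold higher and 1 lower, beside 7.48% and 8.49% of all genes. *Gzmk*, a granzyme gene of effector memory CD8 T cells, had 19 UMIs in 19 of 125 cycling nuclei and 5 UMIs in 5 of 476 others, a log2 ratio of 3.33 (1.86 to 5.11), and was found in 1 of 4432 adipocyte-like nuclei (0.0226%). *Gzma* had 62 and 57 UMIs, a log2 ratio of 1.52 (0.98 to 2.07), but 42 of the 62 UMIs came from 1 nucleus, and without it the ratio was -0.09 (-0.90 to 0.67). *Gzmb* was at 0.86 (0.01 to 1.69) and *Nkg7*, a granule protein gene, at 0.61 (0.05 to 1.16). Without the cycling nucleus with the most UMIs of each, they were at 0.66 (-0.24 to 1.52) and 0.39 (-0.21 to 0.96). In nuclei with at most 5% mitochondrial UMIs they were at -0.55 (-3.89 to 1.93) and -0.34 (-1.56 to 0.76), and *Gzma* was at -2.77. *Ccl5*, a chemokine gene of effector T cells, was lower, at -1.42 (-2.38 to -0.58). The summed list, with *Gzma* in it, had a log2 ratio of 0.49 but of -1.20 in these nuclei.

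Of the activation and exhaustion genes *Havcr2*, which encodes the checkpoint receptor TIM-3, was past 2-fold higher, with 19 UMIs in 12 cycling nuclei and 4 UMIs in 4 others and a log2 ratio of 3.65 (2.06 to 5.67). *Havcr2* is also a gene of macrophages, where 2.09% of the nuclei had a UMI. *Tox* was at 0.34 (0.03 to 0.65), but at -0.044 without possible doublets and -0.20 at the stricter mitochondrial limit of 5%, and *Icos*, a costimulatory receptor gene, at -0.67 (-1.504 to 0.08). *Ctla4*, an inhibitory receptor gene of regulatory and activated T cells, was the single gene past 2-fold of 3 comparable ones of the regulatory list, beside 7.48% of all genes. It had 29 and 37 UMIs, at a log2 ratio of 1.05 (0.30 to 1.79). Of the 29 UMIs 6 came from 1 nucleus, and the ratio was 0.73 (-0.09 to 1.52) without it. *Ikzf2* of that list was at -0.30 (-0.75 to 0.12). *Foxp3* itself had 3 and 5 UMIs and was not compared.

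The list of naive and memory T cells was lower in sum. Of 4 comparable genes 2 were past 2-fold lower and none higher, beside 8.49% and 7.48% of all genes. The summed level was 308 against 699 CPM, a log2 ratio of -1.18 (-1.57 to -0.82). *Il7r*, the receptor gene for the survival cytokine IL-7, had 19 UMIs in cycling and 151 in other T-like nuclei, and a log2 ratio of -1.59 (-2.36 to -0.89). *Tcf7*, a transcription factor gene of naive and stem-like T cells, had 15 and 113 UMIs with -1.51 (-2.39 to -0.73), which was -0.48 after thinning to 1000 UMIs. *Lef1* was at -0.72 (-1.37 to -0.12). For the flox/flox library the summed list was at 0.05 (-1.04 to 1.04). *Gata3*, the comparable gene of the type 2 list, was at 0.23 (-0.88 to 1.26).

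**Figure D5:**
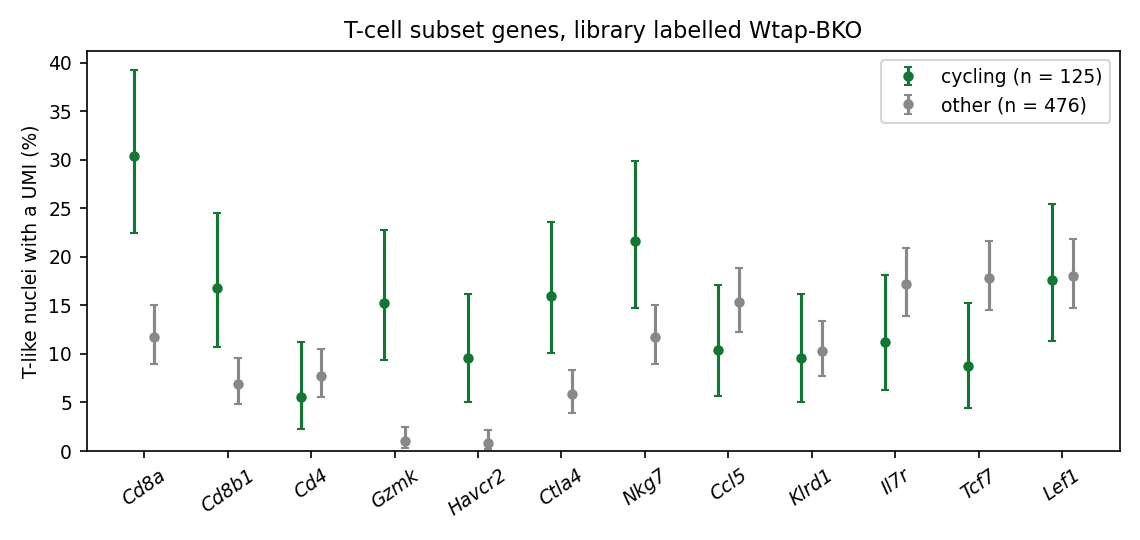
Share of cycling (green) and other (grey) T-like nuclei of the library labelled *Wtap*-BKO with a UMI of each gene, in percent, with exact binomial 95% intervals. *Cd8a* was detected in 30.4% of cycling and 11.8% of other nuclei and *Gzmk* in 15.2% and 1.05%, while *Tcf7* was detected in 8.80% and 17.9%; the cycling nuclei were deeper, with a median of 1484 against 974 UMIs.

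Outside the lists, genes with at least 200 CPM in cycling or other T-like nuclei of the BKO-labelled library were ranked. The 8 with the highest ratios included 4 with known roles in DNA repair or at the kinetochore. *Neil3*, a DNA glycosylase gene of replicating cells, had 52 and 5 UMIs, at a log2 ratio of 4.78 (3.47 to 6.46). The kinetochore gene *Cenpp* had 3.25 (2.45 to 4.12), *Hjurp*, which encodes the chaperone that loads the centromeric histone, 2.15 (1.54 to 2.78) and the recombination gene *Rad51b* 2.09 (1.62 to 2.57). The others were *Gm42047* at 2.75, the noncoding RNAs *Lockd* at 2.62 and *Morrbid* at 2.15, and *AI662270* at 2.24. The lowest of the ranked genes were *Tenm4* at -1.79 (-2.63 to -1.04), *Ghr*, the growth hormone receptor gene, at -1.66 (-2.07 to -1.27), *Apol6* at -1.64, *Sgcd* at -1.49 and *Sucla2*, a mitochondrial enzyme gene, at -1.35.

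Transcripts of adipocytes moved beside these ratios. All 8 adipocyte markers were detected in both sets of T-like nuclei, and their summed level was 2407 CPM in the cycling and 3977 CPM in the other T-like nuclei of the BKO-labelled library, against 8710 CPM in its adipocyte-like nuclei. In the flox/flox library it was 3869 and 4604 CPM, against 6523 CPM. Of 8 comparable brown adipocyte genes none was past 2-fold in the BKO-labelled library, but the median log2 ratio was -0.75, with *Pparg* at -0.73 (-1.13 to -0.36) and *Esrrg* at -0.93 (-1.30 to -0.57), which was -1.48 (-2.03 to -0.97) without possible doublets. The part of RNA from adipocytes in the lower genes was not tested. Of the m6A list 1 of 8 genes was past 2-fold lower, a count near the 8.49% of all genes. It was *Wtap*, with 5 and 42 UMIs, at a log2 ratio of -1.67 (-3.36 to -0.33), which was -0.31 after thinning. *Fto* was at 0.03 (-0.51 to 0.54) and *Zc3h13* at -0.14 (-0.75 to 0.45).

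Between libraries the cycling T-like nuclei were compared with 230579 UMIs of 125 nuclei against 24296 UMIs of 11, so that most genes had few UMIs on the flox/flox side. T markers stood at 5842 CPM in the BKO-labelled and 3252 CPM in the flox/flox set, and adipocyte markers at 2407 and 3869 CPM. The part of this difference in the ratios was not tested. Of 2946 genes with at least 20 UMIs, 703 (23.9%) were at least 2 times higher in the BKO-labelled library and 398 (13.5%) were at or below 0.5 times, with a median log2 ratio of 0.08. Under median-of-ratios scaling the median was 0.51 and the share of these calls that were higher was 82.1% in place of 63.9%. Within the T-like nuclei of the BKO-labelled library, the same change of scaling moved the median from -0.02 to -0.10 and the share of higher calls from 46.9% to 37.2%.

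The cycle lists were compared between the libraries by their sums. The summed mitosis list was at 5356 CPM in the BKO-labelled and 4116 CPM in the flox/flox members, a log2 ratio of 0.38 (0.09 to 0.69) whose sign and size depended on the settings. It was -0.09 (-0.41 to 0.24) without possible doublets, 0.026 (-0.27 to 0.33) with 3 markers per lineage, 0.050 (-0.26 to 0.37) with at least 3 rule genes and 0.072 (-0.22 to 0.38) without *Diaph3*, but 0.82 (0.52 to 1.13) under median-of-ratios scaling. The replication list was at 3665 and 1523 CPM with a log2 ratio of 1.27 (0.79 to 1.78), which was 0.48 (-0.15 to 1.18) after thinning. In the T-like nuclei that were not cycling the ratios were 1.88 (0.93 to 3.02) for mitosis and 0.53 (0.13 to 0.96) for replication, and these nuclei share no nucleus with the members. Of 35 comparable mitosis genes 11 were past 2-fold higher, and of 16 replication genes 7, beside the 23.9% of all genes. Genes reached the 20-UMI minimum mainly through the larger BKO-labelled set, so that a cycle gene low there was mostly left out, and nothing is read from the count of 0 lower genes in either list.

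Genes outside the lists with at least 300 CPM in 1 of the 2 libraries were ranked, and the 5 with the highest ratios rested on 1 or 2 flox/flox UMIs. *Ptma*, which encodes prothymosin alpha, had 187 and 2 UMIs with a log2 ratio of 3.30 (1.43 to 6.36), and *Tapbp*, a gene of antigen loading, 92 and 1 UMIs with 3.28 (0.76 to 8.60). *Tpt1* was at 3.02 (0.50 to 8.34), and *Wapl*, a cohesin release factor gene, and *Pip4k2a* were both at 2.94 (0.42 to 8.27). In the T-like nuclei that were not cycling, *Ptma* was at 2.31, *Tapbp* at 2.38, *Tpt1* at 0.29, *Wapl* at -0.10 and *Pip4k2a* at 0.56. After thinning *Pip4k2a* had 0 flox/flox UMIs, which gives only a lower bound of -0.28 for its log2 ratio. *Ptma* and *Tpt1* have processed copies elsewhere in the genome, so their counts are uncertain. The lowest were *9530026P05Rik* and *Arhgap24* at -4.14, *Peg3* at -3.86, *Zbtb16* at -3.83 (-5.33 to -2.42) and *Rnf152* at -3.59. These rested on 12 to 26 flox/flox UMIs, of which 1 nucleus of 5420 UMIs gave 16 of 26 for *Peg3* and 7 of 13 for *9530026P05Rik*, and *Peg3* was at -2.49 (-4.17 to -0.59) without possible doublets. All 5 were also below 0 in the T-like nuclei that were not cycling. There *9530026P05Rik* was at -1.97, *Arhgap24* at -0.80, *Peg3* at -1.75, *Zbtb16* at -2.75 and *Rnf152* at -2.08.

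Brown adipocyte genes were also compared between the libraries. In the cycling T-like nuclei 5 of 6 comparable genes were at or below 0.5 times, beside 13.5% of all genes, with a median log2 ratio of -2.36. The summed list was at 1197 CPM in the BKO-labelled and 6750 CPM in the flox/flox nuclei. *Pparg* was at 308 and 2428 CPM, a log2 ratio of -2.98 (-3.50 to -2.46), and *Esrrg* at 334 and 2470 CPM, with -2.89 (-3.39 to -2.37). In the other T-like nuclei the summed ratio was -1.49 (-1.66 to -1.32). Over all lineages, in nuclei that were not cycling, *Pparg* was at 1143 and 2560 CPM and *Esrrg* at 1206 and 2239 CPM. Both encode nuclear receptors with known roles in brown adipocytes, and the part of RNA from adipocytes in the flox/flox T-like nuclei was not tested.

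Among the adipocyte-like members the lineage call and the cluster often disagreed. Of the 26 in the BKO-labelled library 12 lay in clusters of adipocytes, 6 in the T cluster, 6 in the macrophage cluster and 2 in no named cluster. After the values had been seen, the 2 sets were described apart. None of the 12 had 3 or more rule genes and 1 had at least 2 mitosis genes. Their mitosis level was 314 CPM (126 to 647), from 7 UMIs, against 153 CPM (144 to 163) in 4021 other adipocyte-like nuclei of these clusters, and their replication level was 224 CPM (72.8 to 523) against 306 CPM (293 to 320).

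The 14 adipocyte-like members in other clusters were unlike these. Of the 14, 8 had 3 or more rule genes and 10 had at least 2 mitosis genes, and the mitosis level was 2593 CPM (1958 to 3367) and the replication level 1991 CPM (1441 to 2682). They had adipocyte markers at 5694 CPM, T-cell markers at 694 CPM (389 to 1145) and *Ptprc*, the gene of the pan-leukocyte antigen CD45, at 833 CPM (494 to 1317), against 84.5 CPM of *Ptprc* in all 4406 other adipocyte-like nuclei and 42.3 CPM in the 4021 of them in adipocyte clusters. Macrophage markers had 1 UMI in the 14, 46.3 CPM (1.17 to 258) against 122 CPM in the 4406. A nucleus with 2 macrophage or 2 T markers was not called adipocyte-like, so the call held both marker levels low. Nothing is read from the macrophage count about the 6 of the 14 that lay in the macrophage cluster. Over all 26, genes outside the lists were ranked among those with at least 300 CPM in the cycling nuclei, a limit that favours high ratios. The 5 highest were *Myo1f* at a log2 ratio of 3.26 (2.37 to 4.04), *Arhgap15* at 3.22 (2.57 to 3.80), *Elmo1* at 3.03 (2.14 to 3.80), *Mndal* at 2.45 (1.64 to 3.17) and *Ptprc* at 2.36 (1.61 to 3.01). The median log2 ratio of all 12494 genes compared was 1.01, with 0 cycling UMIs set to 3. The 5 named genes are known mainly from leukocytes. In the flox/flox library the 4 adipocyte-like members in adipocyte clusters had a mitosis level of 786 CPM (316 to 1620), against 103 CPM in 5951 others.

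The dendritic-like members of the BKO-labelled library, 16 nuclei against 96 others, differed in their own markers, which had served for the lineage call. *Wdfy4*, a gene needed for cross-presentation, was at 4441 CPM and in 15 of 16 cycling nuclei, against 1611 CPM and 65 of 96. *Clec9a*, a receptor gene of type 1 conventional dendritic cells, was at 1025 against 353 CPM and in 12 and 39 nuclei, and *Xcr1*, a chemokine receptor gene of the same cells, was at 122 (39.6 to 285) against 62.6 CPM (31.3 to 112), from 5 and 11 UMIs. *Cd209a* and *Clec10a*, genes of type 2 conventional dendritic cells, were at 24.4 CPM each, with a UMI in 1 cycling nucleus, against 148 and 313 CPM. The intervals of the levels did not overlap for *Wdfy4*, *Clec9a* and *Clec10a* and overlapped for *Xcr1* and *Cd209a*, and the median depths were 1934 and 1475 UMIs per nucleus.

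The macrophage-like members, 17 against 699, had all 10 macrophage markers. *Mrc1*, the mannose receptor gene, was at 937 (686 to 1250) against 919 CPM, *Adgre1*, which encodes F4/80, at 815 (582 to 1109) against 623 CPM and the complement gene *C1qa* at 815 (582 to 1109) against 805 CPM. Lower values were found for *F13a1*, at 326 (186 to 529) against 636 CPM, and *Csf1r*, the receptor gene for the macrophage growth factor CSF1, at 122 (44.8 to 266) against 279 CPM, the latter from 6 UMIs in the cycling nuclei. Of these 17, 13 had at least 2 mitosis genes and 14 at least 2 replication genes.

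Of the 9 fibroblast-like members of the BKO-labelled library 9 had at least 2 replication genes and 6 at least 2 mitosis genes, and in the 4 with 5 or more rule genes the mitosis list reached 10944 CPM. They were deep, with a median of 3623 UMIs. Of the 8 endothelial-like members 7 had at least 2 replication genes and 4 at least 2 mitosis genes, while 5 of 5 in the flox/flox library had at least 2 mitosis genes. The 8 were deep, with a median of 2769 against 828 UMIs, and had pericyte and smooth muscle markers at 1374 CPM (1061 to 1752) against 191 CPM in the other endothelial-like nuclei and fibroblast markers at 740 CPM against 303 CPM, whose part in these counts was not tested. These groups are too small for a comparison by gene.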

How the data were processed

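Per the labels, nuclei from frozen iBAT of 4 mice were pooled per genotype and sequenced on the 10x Genomics platform, giving 1 library each. The deposited values were raw UMI counts per gene and nucleus, which the authors had made with Cell Ranger 5.0.0 per the file headers, and the labels name the build mm10. The methods give a minimum of 500 UMIs per nucleus, which was the lowest total in both libraries. Counting of intronic reads was not given in the sources used here.

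The members and lists were chosen with earlier results of these data known. Lineages were assigned by 120 marker genes of 17 lineages, to the lineage other than adipocytes with the most distinct markers detected and at least 2. Nuclei with an equal number for several lineages were left as tied. A nucleus below 2 markers for each of these lineages was called adipocyte-like if it had at least 2 adipocyte markers. As an alternative, clusters were made in scanpy 1.11.5 from 2000 variable genes without cycle genes, 20 principal components and a resolution of 0.5. No doublet caller was run. Possible doublets, with markers of several lineages or among the 1% of nuclei with the most UMIs, were left out as an alternative.

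UMIs were summed per library, lineage and arm and expressed as CPM. Shares have exact (Clopper-Pearson) binomial, levels exact Poisson and ratios exact conditional intervals (scipy 1.17.1). An arm with 0 UMIs was set to 3 UMIs to bound a ratio. Where genes share a symbol (38 symbols), the gene listed earlier was used. The calculation of the log2 ratios was checked on simulated Poisson counts with known fold changes, which hold no spread between nuclei, mice or libraries. Named in the text were the 9 rule genes, *Wtap*, the 3 members of each list with the most UMIs in cycling nuclei, and the 8 highest and 5 lowest other genes (CPM of at least 200) in T-like nuclei, the 5 highest and 5 lowest between libraries and the 5 highest in adipocyte-like nuclei (CPM of at least 300), without markers, mitochondrial and ribosomal protein genes. Lineage markers and other list genes, such as *Ttk*, *Mcm2*, *E2f7*, *Foxm1*, *Ccnf*, *Btg1*, *Pik3ip1*, *Ccng2*, *Gzmk*, *Ccl5* and *Foxp3*, were picked after their values were seen. Some list genes are not reported here.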

Additional observations from a re-analysis of the deposited data

Results flagged for a closer look

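Of the genes compared between cycling and other T-like nuclei, 3 went in opposite directions in the libraries, with both intervals away from 0. The difference between the libraries was not tested, and the flox/flox side had 11 cycling nuclei. *Arhgap24* had a log2 ratio of -1.37 (-2.30 to -0.56) in the BKO-labelled library, from 14 UMIs in cycling and 96 in other nuclei, and of 1.96 (1.06 to 2.90) in the flox/flox library, from 26 and 19 UMIs. *Esrrg*, a nuclear receptor gene active in brown adipocytes, was at -0.93 (-1.30 to -0.57) with 77 and 387 UMIs, and at 0.59 (0.11 to 1.05) with 60 and 114 UMIs. *Peg3*, an imprinted gene, was at -1.29 (-2.12 to -0.55) with 17 and 110 UMIs, and at 0.82 (0.06 to 1.56) with 26 and 42 UMIs. Of the 26 *Peg3* UMIs of the flox/flox members 16 came from 1 nucleus of 5420 UMIs, and the ratio was -0.19 without it.

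Nuclei over the mitochondrial limit were left out of the report. In the BKO-labelled library 6 of 760 such nuclei (0.789%, 0.290 to 1.71) met the gene rule, against 1 of 592 (0.169%, 0.00428 to 0.938) in the flox/flox library.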

How the results depend on the processing

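No paired analysis was possible because each genotype had 1 library. Of 1455 recomputed values, 1272 stayed within the counting interval of the reported value, or within 1.5 times for counts of genes, 165 lay outside it and 18 whose interval had not held 0 had the other sign, among them *Pip4k2a*, for which this was only a bound. For medians of lists the width of the summed list's interval, centred on the median, stood in for a counting interval. The cause of each change was not tested, but stricter limits leave fewer nuclei and genes.

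With at least 3 rule genes, 0.180% of the flox/flox and 1.81% of the BKO-labelled nuclei were cycling, 56.2% and 62.8% of them T-like, with 15.1% of T-like and 0.181% of adipocyte-like BKO-labelled nuclei cycling. The T-like log2 ratios were then 1.44 for replication and 3.19 for mitosis, and between libraries 371 genes were higher, 261 lower and the mitosis ratio was 0.050. Without *Diaph3* the BKO-labelled share was 2.41%, the mitosis ratio 3.29, and between libraries 456 genes were higher and the mitosis ratio was 0.072.

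At most 5% mitochondrial UMIs gave a BKO-labelled share of 3.26%, 45.8% T-like members, 181 genes higher and 276 lower in cycling T-like nuclei, a mitosis ratio of 3.03, and between libraries 175 higher, 126 lower and a replication ratio of 1.83. It turned the summed cytotoxic list to -1.20, the medians of the cytotoxic list to -2.003, of the activation list to -1.08 and of the regulators to -0.72, and *Gzma* to -2.77, *Gzmb* to -0.55, *Nkg7* to -0.34, *Tox* to -0.20, *Brca2* to -0.19 and *Tob1* to 0.035.

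Thinning to 1000 UMIs gave a BKO-labelled share of 2.25%, T-like shares of 27.6% and 25.3%, an adipocyte-like share of 0.350%, 198 genes higher and 377 lower, ratios of 1.27 for replication and 3.24 for mitosis, and between libraries 101 higher, 63 lower and a replication ratio of 0.48. It turned the median of the cytotoxic list to -0.33 and of the activation list to -0.71, and *Pip4k2a*, with 0 flox/flox UMIs, had a lower bound of -0.28, which shows no change of direction. A minimum of 1000 UMIs without thinning gave shares of 0.564% and 3.30%, T-like shares of 28.9% and 29.7% and a replication ratio of 1.82.

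Without possible doublets the BKO-labelled share was 2.43%, between libraries 302 genes were higher and 234 lower, and the mitosis ratio turned to -0.090, the median of the activation list to -0.044 and *Tox* to -0.044. With 3 markers per lineage 25.6% and 24.8% of T-like nuclei were cycling, and between libraries 461 genes were higher and the mitosis ratio was 0.026. By cluster, 62.6% of BKO-labelled members were T-like and 0.318% of adipocyte-like nuclei cycling.

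With at least 50 UMIs per gene 151 genes were higher and 198 lower in cycling T-like nuclei, and 209 and 109 between libraries, and the median of the activation list was -0.17. With at least 1 UMI it was 1342 and 1277, and 856 lower between libraries. Median-of-ratios scaling gave 208 lower genes between libraries and a mitosis ratio of 0.82. Leaving out the cycling nucleus with most UMIs of a gene, an alternative chosen after the data were seen, turned *Gzma* to -0.087.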
